A study of Rattus norvegicus with 43 samples.

Results

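The glucocorticoid receptor gene Nr3c1, the gene of the enzyme that makes its natural ligand in liver (Hsd11b1), and 4 genes that the receptor is known to switch on (Fkbp5, Tsc22d3, Sgk1 and Klf9) were followed from intact rat liver into primary culture. They were chosen by name: every probe set on the array whose single listed symbol was one of these 6 was taken, and a gene with several was represented by its brightest, by mean log2 signal. The 6 genes had 10 probe sets in all and were 6 of the 10649 genes tested. The probe sets used lay above the median of their array on 100% of arrays, so none of the 6 was lost to the filter on dim probe sets.

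Rat primary hepatocytes (RPH) from 3 male Sprague Dawley rats were profiled on 43 Affymetrix RG230-2 arrays. Each rat gave 5 samples: a lobe of liver tied off before perfusion (liver), the pellet of freshly isolated cells (0 h), and cells kept on collagen-coated plates for 4, 24 and 48 h. A sample was hybridized to 3 arrays, except where the authors left out 2 arrays (1 at 4 h and 1 at 48 h), and its arrays were averaged, so that n is 3 rats per group throughout. No age was given in the sources used here, and no animal was given a test compound. The paper states that the rats were injected with pentobarbital and killed by exsanguination.

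The 4, 24 and 48 h cells shared a William's E medium with glutamate, gentamicin, insulin, transferrin and dexamethasone, a synthetic glucocorticoid that binds the receptor directly; its concentration was not given in the sources used here. Fetal bovine serum was present until 4 h and absent afterwards. The liver and the 0 h pellet had not met this medium, and no culture without dexamethasone was analysed here. Hours on the plate, dexamethasone and insulin cannot be told apart in this design, nor can the step from 4 to 24 h and the loss of serum.

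The glucocorticoid receptor rests in the cytosol in a complex with Hsp90 and its cochaperones. On binding hormone it moves to the nucleus, where it raises transcription of some genes by binding DNA at response elements and lowers that of others, many of them inflammatory. In liver it is known for raising gluconeogenesis and amino acid breakdown, and hepatocytes regenerate active corticosterone from its inert 11-keto form through Hsd11b1.

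Signals here are MAS5 intensities on a linear scale, each array scaled to a trimmed mean of 500, and the medians of single arrays ran between 79.4 and 145. A signal ranks samples for 1 probe set and says nothing of one gene against another. Hepatocyte markers (9 of 10 listed genes kept) summed to 154122 to 180942 at 48 h and 291668 to 315294 in liver, so the labelled cell type was present throughout. At 48 h against liver 7 of the 9 were called lower (22.6% of all genes), with a median log2 fold change of -0.67. Alb (albumin) had a geometric mean of 29636 at 48 h and 36532 in liver. The summed signal of 9 Kupffer cell markers was 1686 to 2333 at 48 h, against 20972 to 27029.6 in liver, and that of 12 sinusoidal endothelial markers was 1194 to 1837 at 48 h, against 17117 to 20789.7 in liver. Stellate and fibroblast markers (11 kept) summed to 7169 to 14294 in liver, 870.2 to 2702 at 4 h and 5576 to 7075 at 48 h, and 3 cholangiocyte markers to 2204 to 3133 at 48 h, against 994 to 1032 in liver. In bulk RNA, fewer cells of a type and less RNA per cell cannot be told apart. The 3′/5′ signal ratio of the beta-actin control, a measure of RNA integrity and labelling, averaged 2.22 at 48 h and 4.60 in liver. The livers of rats 1, 2 and 3 gave 6.96, 3.21 and 3.64. At 0, 4 and 24 h the ratio averaged 3.90, 2.97 and 2.35. It thus fell with time in culture, and fits with this ratio as a covariate cannot fully separate the 2. The part of cell makeup and of RNA quality in the results below was not tested, except where a value is given. The livers labelled rat 1 and rat 2 resembled the other rat's cells more than their own: over all genes, deviations of the liver of rat 1 correlated at -0.07 to 0.21 with its own cells and at 0.13 to 0.23 with those of rat 2, and the liver of rat 2 at -0.15 to 0.02 with its own and at 0.05 to 0.10 with those of rat 1. Comparisons of groups below do not use the pairing of rats, and within-rat differences from liver rest on those labels.

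Promoter windows, from 250 bases before to 50 bases after each listed transcription start, were found for 5 of the 6 genes (10 windows, RefSeq sequences on build GRCr8). The 3 below belong to the gene that rose furthest, the gene that fell furthest and the gene that was lowest at 4 h; capitals mark the GC box (GGGCGG, or CCGCCC on the other strand) and the letters TATAAA, both chosen after the windows had been read.
Fkbp5: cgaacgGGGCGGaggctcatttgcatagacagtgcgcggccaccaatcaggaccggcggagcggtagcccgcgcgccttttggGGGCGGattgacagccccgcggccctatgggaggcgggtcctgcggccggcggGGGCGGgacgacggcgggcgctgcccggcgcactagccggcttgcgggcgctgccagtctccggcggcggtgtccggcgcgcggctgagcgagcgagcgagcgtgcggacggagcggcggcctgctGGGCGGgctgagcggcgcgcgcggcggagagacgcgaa
Sgk1: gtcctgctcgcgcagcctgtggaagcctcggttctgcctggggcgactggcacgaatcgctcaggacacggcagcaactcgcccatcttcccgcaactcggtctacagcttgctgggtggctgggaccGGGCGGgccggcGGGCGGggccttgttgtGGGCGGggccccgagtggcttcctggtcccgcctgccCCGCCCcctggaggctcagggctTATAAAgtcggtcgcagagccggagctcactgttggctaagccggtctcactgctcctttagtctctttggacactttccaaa
Tsc22d3: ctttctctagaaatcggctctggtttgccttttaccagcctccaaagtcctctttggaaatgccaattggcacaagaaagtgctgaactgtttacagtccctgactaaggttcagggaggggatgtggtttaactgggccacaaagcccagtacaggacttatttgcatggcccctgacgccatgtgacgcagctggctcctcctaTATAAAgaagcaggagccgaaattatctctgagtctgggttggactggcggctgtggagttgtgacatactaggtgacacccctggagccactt
The letters TGTTCT, one arm of the element that the receptor binds, were searched on both strands (as TGTTCT and AGAACA) and were in none of the 10 windows. They were in 20.7% of all 33469 windows of the same length. The full element, 2 arms facing each other across 3 bases, was in 5 of all windows and in none of these 10. These letters are often found far from the start of a gene, and their absence from a short window says nothing of the receptor's binding. The Fkbp5 window (chr20:6543506-6543805, minus strand) held 4 GC boxes and the Sgk1 window shown (chr1:24804782-24805081, minus strand) held 4 GC boxes and 1 TATAAA. The Tsc22d3 window shown (chrX:109009985-109010284, minus strand) held 1 TATAAA and no GC box. For Sgk1 and Tsc22d3, each with 3 windows, the one shown was chosen after all had been read. The other Tsc22d3 windows held 1 and 3 GC boxes and no TATAAA, and of the other Sgk1 windows 1 held a TATAAA with no GC box and 1 held 2 GC boxes with no TATAAA. A GC box was in 33.1% of all windows and TATAAA in 8.8%. The single Klf9 window, on chromosome 1, and the 2 Nr3c1 windows, on chromosome 18, held no TATAAA.

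Nr3c1 encodes the receptor itself. Its signal was 3778, 3099 and 4412 in the livers of rats 1, 2 and 3, 4104, 3229.5 and 3684 at 0 h, 2524, 2195 and 1841 at 4 h, 1837, 1276 and 1009.7 at 24 h, and 1338, 1011 and 1099 at 48 h. Liver and 0 h overlapped, and each of the 3 cultured groups lay wholly below both. The fall was stepwise: the log2 fold change against liver was -0.78 at 4 h (SE 0.22, adjusted p = 0.0113), -1.48 at 24 h (adjusted p = 0.00013) and -1.71 at 48 h (adjusted p = 3.6e-05). At 48 h the receptor transcript was 3.26-fold lower than in liver. In the order of levels, liver and 0 h did not differ beyond their spread (adjusted p = 0.971), 4 h lay below 0 h (log2 difference 0.75, adjusted p = 0.0162), 24 h below 4 h (0.70, adjusted p = 0.022), and 24 h and 48 h did not differ beyond their spread (adjusted p = 0.732). Within each rat the difference of 48 h from its own liver was -1.50, -1.62 and -2.005. A second probe set for Nr3c1 was dim, above the array median on 62.8% of arrays, and scattered widely in liver (20.8 to 166.8). It did not follow the fall (log2 difference 0.49 for 48 h against liver, with no test of its own), and with the mean of both probe sets the changes at 4, 24 and 48 h against liver were 0.03, -0.33 and -0.61, none of them called.

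Hsd11b1 encodes 11β-hydroxysteroid dehydrogenase type 1, the reductase of the endoplasmic reticulum that returns inert 11-dehydrocorticosterone to active corticosterone. Its signal was 18975, 20569 and 20255 in liver, 15227, 24234 and 20745 at 0 h, 18881, 20146 and 20848 at 4 h, 14983, 16848 and 20312 at 24 h, and 14497, 15384 and 12551 at 48 h. The first 4 groups overlapped one another, and the 48 h cells lay below all liver and 4 h samples but overlapped the 0 h range. The log2 fold change against liver was 0.0015 at 4 h (95% interval -0.38 to 0.38), -0.21 at 24 h (adjusted p = 0.343) and -0.50 at 48 h (SE 0.17, adjusted p = 0.0308), the last a 1.41-fold lower level. No neighbours in its order of levels differed beyond their spread. The call at 48 h was lost with quantile normalization (-0.13, adjusted p = 0.502) and with arrays centred on the median (-0.11, adjusted p = 0.745).

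Fkbp5 encodes FKBP51, a cochaperone that lowers the receptor's affinity for hormone and is itself a target of the receptor. Its signal was 388, 471 and 359 in liver, 325, 416 and 330.0 at 0 h, 2571, 4121 and 4291 at 4 h, 1707, 2277 and 2018 at 24 h, and 1981, 2100.1 and 2303 at 48 h. Every cultured sample lay far above every liver and 0 h sample, and the 4 h samples lay above those of 24 and 48 h. Fkbp5 was the one gene of the 6 that rose: 10.1-fold at 4 h against 0 h (log2 fold change 3.33, SE 0.20, adjusted p = 1.9e-07), 4.93-fold at 24 h against liver (adjusted p = 1.8e-06) and 5.26-fold at 48 h against liver (adjusted p = 9.5e-07). It then stood lower at 24 h than at 4 h by 0.85 on the log2 scale (adjusted p = 0.0049), and 24 h and 48 h did not differ beyond their spread (adjusted p = 0.902). The second Fkbp5 probe set, also above the array median on 100% of arrays, gave log2 differences from liver of 3.31 at 4 h, 2.96 at 24 h and 2.85 at 48 h. Both probe sets were thus higher than in liver in all 3 cultured groups.

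Tsc22d3 encodes GILZ, a leucine zipper protein that carries part of the anti-inflammatory action of glucocorticoids. Its signal was 4169, 4449.7 and 2473 in liver, 4398, 3739 and 2824 at 0 h, 1394, 2377 and 889.7 at 4 h, 1686, 1808 and 1690.0 at 24 h, and 2595, 2361 and 2283 at 48 h. It is a classical target that glucocorticoids raise. Here it fell, and the cause of the fall was not tested. All 4 h and 24 h samples lay below all liver and 0 h samples, while the 48 h samples overlapped those of liver. The 4 h samples were the most scattered of the 5 groups (SD 0.71 on the log2 scale) and the 24 h samples among the tightest (SD 0.06). The log2 fold change was -1.33 at 4 h against 0 h (SE 0.31, adjusted p = 0.0042), -1.32 at 4 h against liver (adjusted p = 0.0036), -1.05 at 24 h against liver (adjusted p = 0.013) and -0.57 at 48 h against liver (95% interval -1.23 to 0.09, adjusted p = 0.141). The signal at 48 h was above that of 24 h in 3 of 3 rats, with no overlap, but the difference did not pass the test (0.48, adjusted p = 0.52). The 48 h signal was 1.68-fold that of 4 h (adjusted p = 0.0591); with rat as a replicate block this difference did pass (adjusted p = 0.0184).

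Sgk1 encodes serum- and glucocorticoid-regulated kinase 1, a kinase that acts on ion channels and transporters. Its signal was 4171, 2972 and 6817 in liver, 4628, 4338 and 7415 at 0 h, 4972, 5699 and 9948 at 4 h, 474, 267 and 504 at 24 h, and 354, 223 and 339 at 48 h. It held its level through plating and then fell steeply: liver, 0 h and 4 h overlapped, and every 24 h and 48 h sample (223 to 504) lay below the lowest of those samples, a liver at 2972. The log2 fold change at 24 h against 4 h was -4.04 (SE 0.36, adjusted p = 3.7e-06), a 16.4-fold lower level and the largest change of the 6 genes between neighbouring times. Against liver it was -3.46 at 24 h (adjusted p = 7.8e-06) and -3.88 at 48 h (14.7-fold lower, adjusted p = 2.2e-06). At 4 h Sgk1 was 0.58 above liver on the log2 scale (adjusted p = 0.206), higher in 3 of 3 rats; with rat as a replicate block this passed the test (adjusted p = 0.0339), and with the livers of rats 1 and 2 exchanged it did not. It also passed with arrays centred on the median (1.04, adjusted p = 0.0386). Rat 3 gave the highest signal in 4 of the 5 groups.

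Klf9 encodes a Krüppel-like transcription factor that binds GC boxes and is induced by glucocorticoids in several tissues. Its signal was 3027, 5805 and 3881 in liver, 3348, 3496 and 4701 at 0 h, 3366, 4525 and 3776 at 4 h, 3070.2, 2789 and 2792 at 24 h, and 1908, 1871 and 1973 at 48 h. The first 3 groups overlapped, the 24 h samples lay below all those of 0 h and 4 h, and the 48 h samples lay below all others and within a narrow range. The log2 fold change against liver was -0.50 at 24 h (adjusted p = 0.0679) and -1.09 at 48 h (SE 0.21, adjusted p = 0.001), a 2.13-fold lower level. The difference of 24 h from liver did pass with quantile normalization (-0.55, adjusted p = 0.043) and with the beta-actin ratio as a covariate (-1.09, adjusted p = 0.0061). It also passed, among other settings, without the liver of rat 1 (-0.72, adjusted p = 0.0145). With the mean of all probe sets it turned to 0.25 (adjusted p = 0.607), and over the leave-outs it ran from -0.77 to -0.23. No single step between neighbours in its order of levels passed the test. Of its other probe sets, one was dim, above the array median on 88.4% of arrays, and scattered between 17.3 and 275.3 in liver. Against liver it gave 1.60 at 4 h, 1.47 at 24 h and 0.57 at 48 h. The probe set used gave -0.08, -0.50 and -1.09. The other, above the array median on 0% of arrays, gave -0.90 at 48 h against liver. At 48 h against 4 h the probe set used gave -1.01, the scattered one -1.03 and the dimmest -0.82. With the mean of all 3, the change at 48 h against liver was -0.47 (adjusted p = 0.317).

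**Figure D1:**
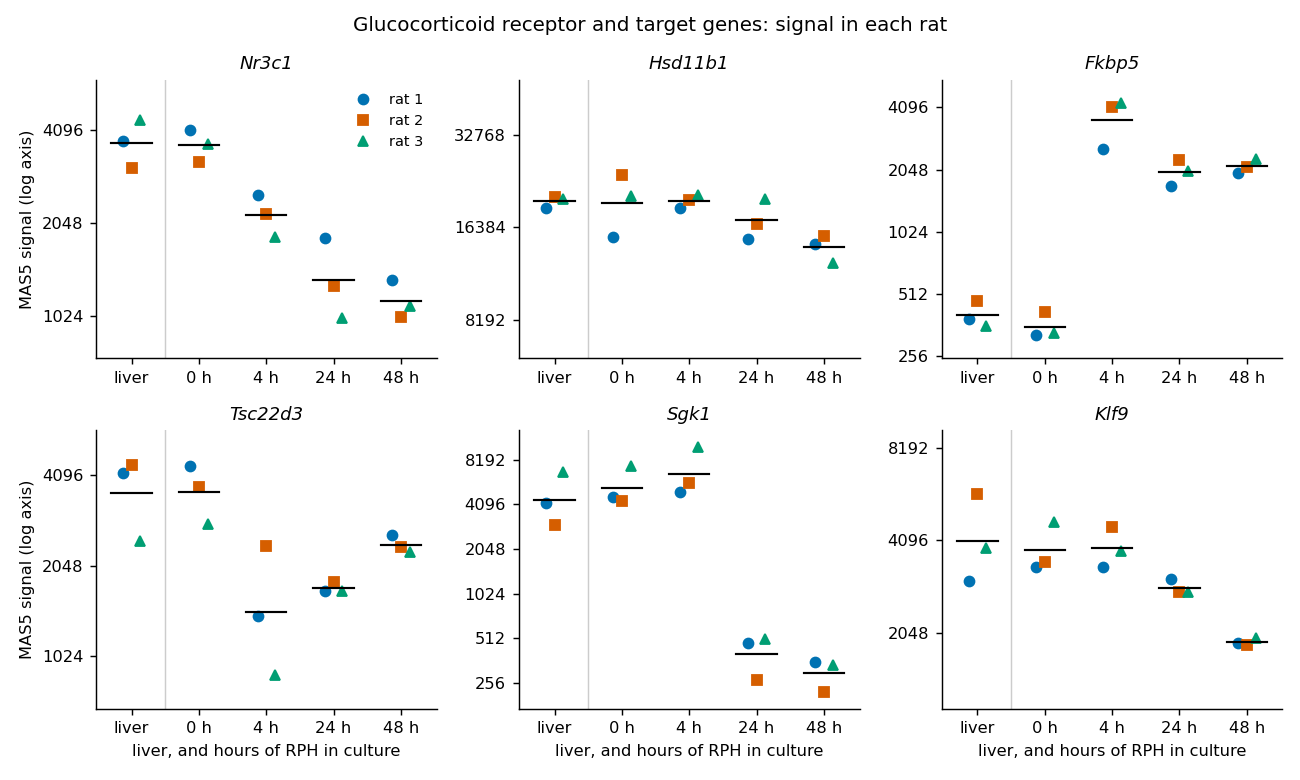
MAS5 signal (log axis) of each of the 6 genes in liver and in RPH at 0, 4, 24 and 48 h; each point is 1 rat and each bar the geometric mean of 3 rats. Fkbp5 stands near 400 in liver and above 1700 in every cultured sample, while Sgk1 stands below 510 in every 24 h and 48 h sample.

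**Figure D2:**
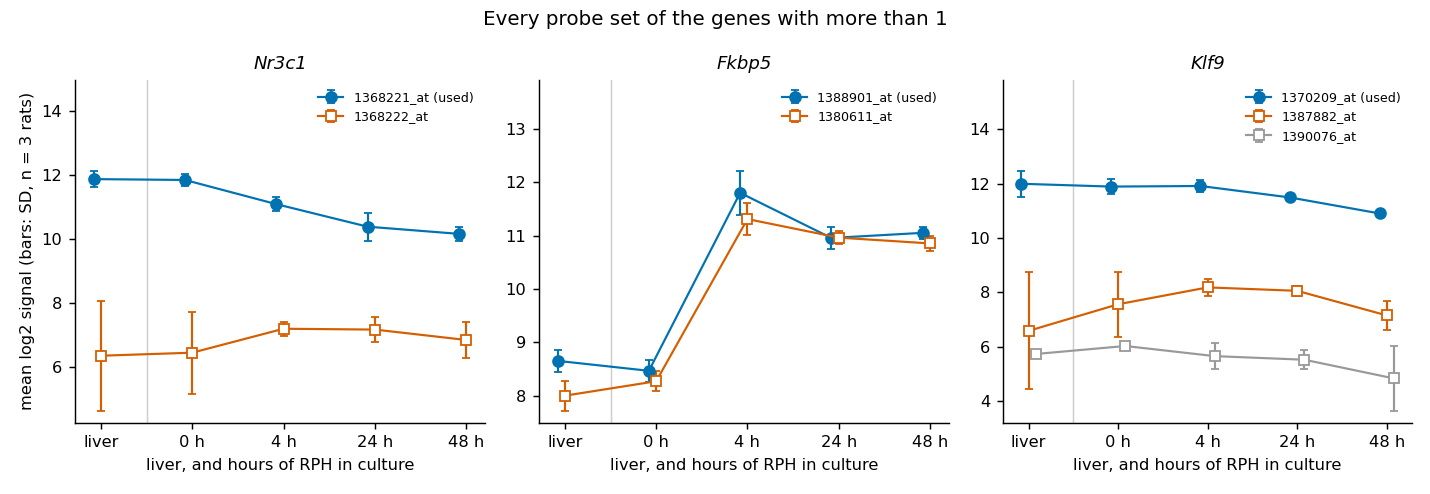
Mean log2 signal (bars are SD over 3 rats) of every probe set of the 3 genes that had more than 1, in liver and RPH. Both Fkbp5 probe sets rise together at 4 h, whereas the dim second probe sets of Nr3c1 and Klf9 scatter widely in liver and lie above liver in culture; all 3 Klf9 probe sets are lower at 48 h than at 4 h.

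Isolation alone was compared first, as 0 h cells against liver. In limma's test 0 of the 6 genes were called (0 at an unadjusted p under 0.05), where 0.141% of the 10649 genes were called higher and 0.432% lower. The largest difference was that of Sgk1, 0.27 on the log2 scale with a 95% interval of -0.51 to 1.06, so a change of that size was not detectable here. For Nr3c1 the interval was -0.50 to 0.45, and for Fkbp5 it was -0.62 to 0.25.

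Plating and attachment were addressed by 4 h cells against 0 h cells. Of the 6 genes, 1 rose (Fkbp5, against 16.3% of all genes) and 2 fell (Nr3c1 and Tsc22d3, against 22.6%). Sgk1 at 0.31, Klf9 at 0.02 and Hsd11b1 at 0.02 on the log2 scale did not pass. Against liver the same 3 genes were called at 4 h, where 16.4% of all genes were higher and 29.9% lower. The call of Nr3c1 at 4 h against liver was lost with arrays centred on the median (-0.32, adjusted p = 0.243).

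The first day on the plate was addressed by 24 h cells. Against 4 h, 3 of the 6 genes fell (Nr3c1, Fkbp5 and Sgk1), where 13.5% of all genes were lower and 26.3% higher. Without rat 3 only Sgk1 was called, with Fkbp5 at -0.72 (adjusted p = 0.0941) and Nr3c1 at -0.62 (adjusted p = 0.116). Against liver, Fkbp5 was higher and Nr3c1, Tsc22d3 and Sgk1 were lower, with 23.7% of all genes higher and 23.9% lower. Against 0 h the same 4 genes were called, with 24.2% of all genes higher and 17.3% lower, and Tsc22d3 lost its call with the beta-actin ratio as a covariate (-0.86, adjusted p = 0.15), without rat 1 (-0.89, adjusted p = 0.167) and without the 0 h sample of rat 1 (-0.91, adjusted p = 0.0556). The call of Tsc22d3 at 24 h against liver was lost with arrays centred on the median (-0.63, adjusted p = 0.111) and with the beta-actin ratio as a covariate (-0.81, adjusted p = 0.212).

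At 48 h against liver 5 of the 6 genes were called, Fkbp5 higher (25.4% of all genes) and Nr3c1, Hsd11b1, Sgk1 and Klf9 lower (22.6% of all genes). The median log2 fold change of the 6 was -0.83, and that of all genes 0.04. Centring arrays on the median moved the median of all genes by 0.38 to 0.46 in the comparisons against liver, and the share of higher genes among all those called was then 68.2% at 4 h, 74.4% at 24 h and 75.0% at 48 h, against 35.4%, 49.8% and 52.9% as scaled by the authors. Against 0 h the same 5 were called, with 26.6% of all genes higher and 17.5% lower; these comparisons share their 48 h samples. Hsd11b1 lost its call at 48 h against 0 h under 6 of the other settings, among them quantile normalization (-0.14, adjusted p = 0.475) and centring (-0.47, adjusted p = 0.163), and in 6 leave-outs. Against 4 h, 5 fell (all but Tsc22d3), with 31.3% of all genes higher and 17.1% lower. That count was 3 with the mean of all probe sets, where Nr3c1 (-0.64, adjusted p = 0.204) and Klf9 (-0.95, adjusted p = 0.0515) lost their calls, and 3 without rat 2 or without rat 3. Hsd11b1 lost its call at 48 h against 4 h with quantile normalization (-0.16, adjusted p = 0.392), with centring (-0.57, adjusted p = 0.0877) and in 7 leave-outs. From 24 h to 48 h limma called 0 of the 6 (1 at an unadjusted p under 0.05, Klf9 at -0.59), where 2.51% of all genes were higher and 1.77% lower. With the mean of all probe sets of a gene, 3 of the 6 were called at 48 h against liver and against 0 h.

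**Figure D3:**
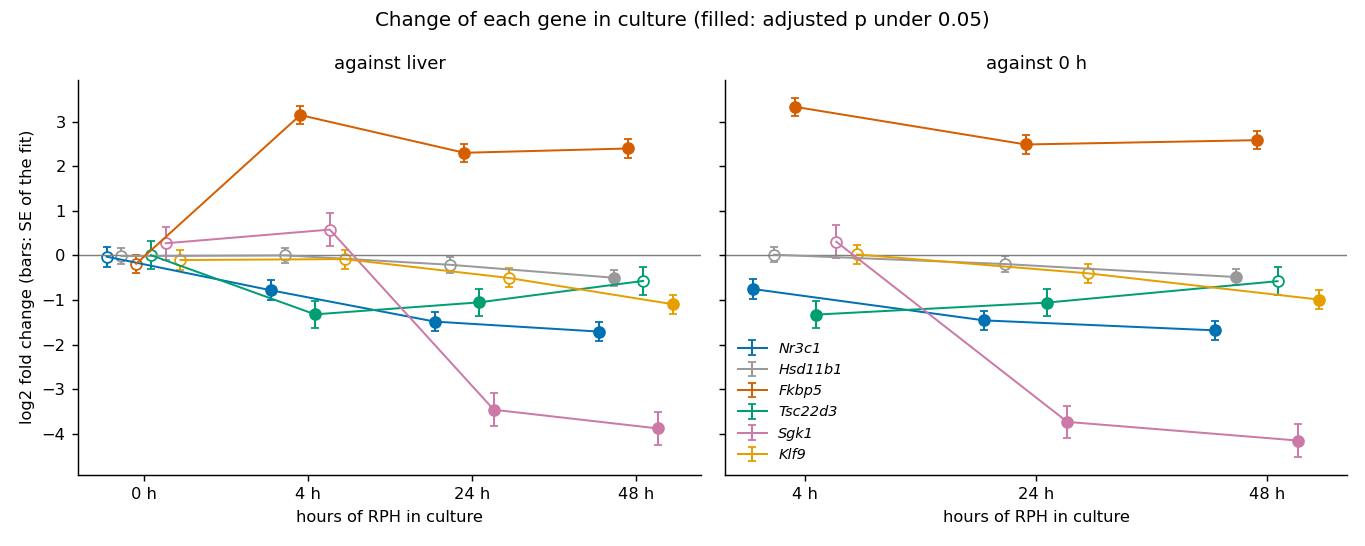
Log2 fold change of each gene against liver (left) and against 0 h (right) by hours in culture, with the SE of the fit over 15 samples as bars; filled points have an adjusted p under 0.05. Fkbp5 alone lies above 0 at 4, 24 and 48 h, Sgk1 drops between 4 and 24 h, and Tsc22d3 is lowest at 4 h and no longer called at 48 h.

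Supply and clearance of corticosteroids were described by 12 further genes. At 4 h against 0 h, 1 of them rose (16.3% of all genes), H6pd, which was named after its value was seen. H6pd encodes the enzyme that feeds NADPH to Hsd11b1 inside the endoplasmic reticulum. Its signal was 7716, 7315 and 11012 at 4 h, against 3596, 3805 and 3908 at 0 h (log2 fold change 1.18, adjusted p = 0.00054), and it was 2454, 2028 and 3122 at 48 h, against 3889, 3149 and 2882 in liver (-0.39, adjusted p = 0.12). All 4 h samples of H6pd lay above those of the other 4 groups, whereas those of Hsd11b1 overlapped liver and 0 h. Hsd11b2, the enzyme that inactivates corticosterone, also named after its values were seen, was dim throughout (geometric means 82.1 to 193) and did not pass at 4 h against 0 h (-0.67, adjusted p = 0.11).

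At 48 h against liver 2 of the 12 rose (25.4% of all genes) and 6 fell (22.6%), with a median of -0.52. Serpina6, which encodes corticosteroid-binding globulin, the plasma carrier made by hepatocytes, fell furthest. Its signal was 95.4, 114 and 215 at 48 h, against 16273, 17026 and 16770.1 in liver. On the log2 scale it was -6.97 from liver (SE 0.31, adjusted p = 3.2e-09), and it had been 14423, 11727 and 17430.3 at 4 h. Hsd3b5 (-3.08, adjusted p = 7.3e-07), a 3-ketosteroid reductase of male rat liver, and the cytochromes Cyp3a2 (-3.13, adjusted p = 7e-06) and Cyp3a9 (-3.64, adjusted p = 0.00015), which hydroxylate steroids, also fell. The Cyp3a genes are near copies of one another, and a probe set may read more than one of them. Nr3c2, the mineralocorticoid receptor, which also binds corticosterone, was dim and was called in none of the 10 comparisons (lowest unadjusted p = 0.0227, for 4 h against 0 h).

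**Figure D4:**
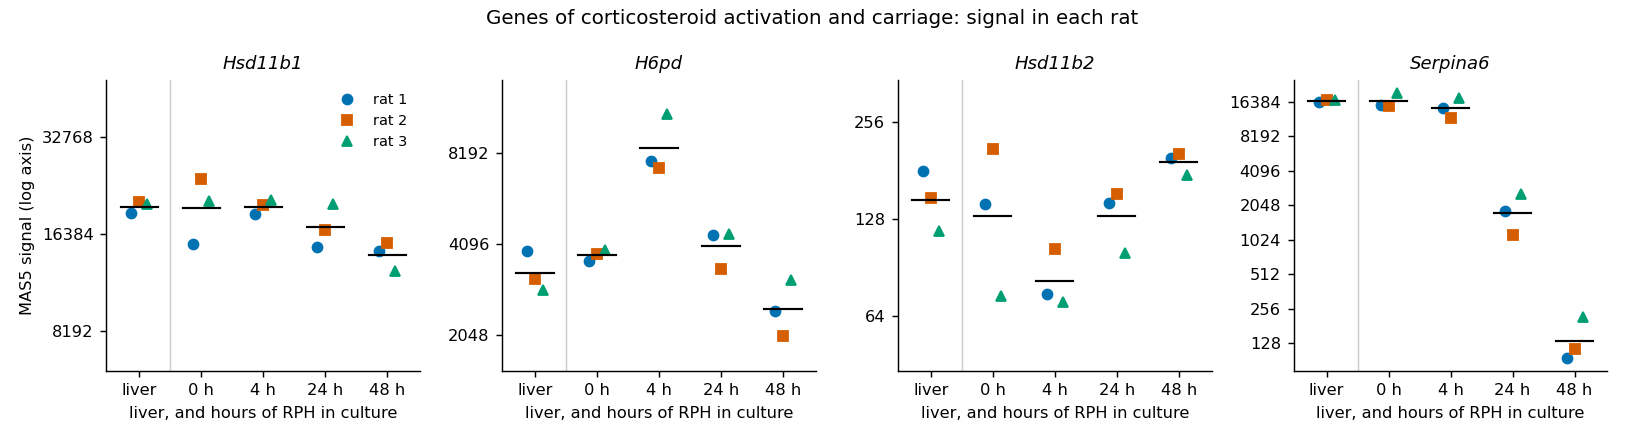
MAS5 signal (log axis) of Hsd11b1, H6pd, Hsd11b2 and Serpina6 in liver and RPH; each point is 1 rat and each bar the geometric mean of 3 rats. H6pd is highest at 4 h (7315 to 11012), and Serpina6 stands between 95.4 and 215 at 48 h and between 16273 and 17026 in liver.

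Among 14 chaperones and cochaperones of the receptor complex, 3 rose at 4 h against 0 h and 6 rose at 48 h against liver, with medians of 0.16 and 0.39 on the log2 scale (all genes -0.15 and 0.04). The shares of all genes that rose were 16.3% at 4 h and 25.4% at 48 h. At 48 h the largest rises were those of the inducible heat shock protein Hspa1a (1.76, adjusted p = 0.0195), the Hsp90 cochaperone Cdc37 (1.31, adjusted p = 3.9e-05) and the Hsp70-interacting protein St13 (0.70, adjusted p = 0.0015). Hspa1a was already higher at 0 h, at a geometric mean of 1100.3 (318 to 2824), than in liver at 167 (2.72, adjusted p = 0.0499), and stood at 565 at 48 h. That call at 0 h was lost without rat 2, without rat 3 and without the liver of either. It was also lost without the 0 h sample of rat 3, as no gene was called higher at 0 h in these fits. Hspa4 rose at 4 h against 0 h (0.69, adjusted p = 0.048), a call lost with quantile normalization (adjusted p = 0.096). Fkbp4, which encodes FKBP52, the relative of FKBP51 that aids the receptor, was chosen after its values were seen and gave -0.26 at 4 h against 0 h (adjusted p = 0.25) and -0.34 at 48 h against liver (adjusted p = 0.12), where Fkbp5 rose in both.

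Of 14 kept coregulators (1 more, Ncoa2, was too dim), 5 fell at 4 h against 0 h and 4 fell at 48 h against liver, where 22.6% of all genes fell in each comparison. The nuclear receptor corepressor Nr0b2 (SHP) fell most, to 55.7, 36.2 and 25.8 at 48 h, against 4838, 1362 and 1354 in liver (-5.80, adjusted p = 2.6e-06; -4.89 with an offset of 32). Nr2f2 (COUP-TFII) fell at 4 h against 0 h (-1.87, adjusted p = 7e-05); it is also known from endothelial cells, whose summed markers were 4149 to 6571 at 4 h and 10588 to 15464 at 0 h, and the part of these cells was not tested. Ncoa1, the steroid receptor coactivator SRC-1, and Ncor1, a corepressor, fell at 4 h against 0 h by 0.84 (adjusted p = 0.00099) and 0.63 (adjusted p = 0.0017), and gave 0.08 and 0.04 at 48 h against liver, neither called.

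Of 29 metabolic targets, 10 rose and 5 fell at 4 h against 0 h (median 0.14), and 3 rose and 14 fell at 48 h against liver (median -0.38). Of all genes 16.3% rose and 22.6% fell at 4 h, and 25.4% rose and 22.6% fell at 48 h. Pck1, the rate-limiting enzyme of gluconeogenesis, fell to 2001, 5682 and 2781 at 4 h, against 31102, 35666 and 26561 at 0 h, and to 665, 465 and 542 at 48 h, against 36421, 35916 and 28362 in liver (-5.92, adjusted p = 1.3e-08). Pck1 is also repressed by insulin, which the medium held, and the part of insulin in this fall was not tested. Sds, serine dehydratase, fell at 48 h (-4.47, adjusted p = 0.00072; -2.89 with an offset of 32). Metallothionein Mt2A rose to 31639, 28931 and 34909.5 at 4 h, against 2013, 705 and 4711 at 0 h (4.07, adjusted p = 0.00014), and gave 0.65 at 48 h against liver (adjusted p = 0.37). The glycolytic regulator Pfkfb3 rose at 4 h against 0 h (4.58, adjusted p = 9.2e-07; 1.92 with the mean of its probe sets). Tat, tyrosine aminotransferase, a long-studied glucocorticoid target of hepatocytes, was called in none of the 10 comparisons by limma; its signal was 4081 to 4866 at 48 h, against 2671 to 3881 in liver (0.41, adjusted p = 0.188), and the lowest unadjusted p was 0.03, for 0 h against liver.

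Of 21 regulatory targets, 12 rose and 3 fell at 4 h against 0 h (median 1.09 on the log2 scale), and 6 rose and 7 fell at 48 h against liver (median -0.0019), beside 16.3% and 22.6% of all genes at 4 h and 25.4% and 22.6% at 48 h. The transcription factor Cebpd rose to 1558, 2798 and 2084 at 4 h, against 338, 166 and 198 at 0 h (3.23, adjusted p = 4.6e-06). Tnfaip3 (A20), a brake on NF-kappaB signalling, was 2.60 above liver at 48 h (adjusted p = 7.3e-07), and its 3 cultured groups stood at geometric means of 2747, 2982 and 2927. Il1r2, the decoy receptor for interleukin-1, was at or under 14.1 in every liver and rose to 157, 118 and 143 at 48 h, after a geometric mean of 604 at 24 h (3.95 for 48 h against liver, adjusted p = 3.5e-05; 1.98 with an offset of 32). Gadd45g, a stress-response gene, fell (-3.01 at 48 h against liver, adjusted p = 1.5e-06), and Per1, a clock gene that glucocorticoids induce, rose at 4 h against 0 h (1.60, adjusted p = 0.0423) but gave 0.68 at 48 h against liver (adjusted p = 0.346). Several of these genes also respond to cytokines and to cell stress.

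Of 13 kept genes that the receptor is known to repress (5 more were too dim), 6 rose at 4 h against 0 h (median 1.03), and 4 rose and 6 fell at 48 h against liver (median -0.73), beside 16.3% of all genes higher at 4 h and, at 48 h, 25.4% higher and 22.6% lower. The chemokine Cxcl2 rose to 2043, 2844 and 1919 at 4 h, against 169, 177 and 168 at 0 h (3.71, adjusted p = 7e-06). Il6 rose to 194, 335 and 201 at 4 h, against 18.6, 28.0 and 14.1 at 0 h (3.60, adjusted p = 6.8e-07; 2.31 with an offset of 32), and Ptgs2, the inducible cyclooxygenase, rose with it (3.24, adjusted p = 0.00037; 1.83 with the offset). These genes rose in the same samples in which Fkbp5 rose 10.1-fold. The call of Il6 as lower at 48 h than in liver (-0.73, adjusted p = 0.0294) was lost with quantile normalization (-0.19). Ccl5, a chemokine also made by lymphocytes and macrophages, fell at 48 h against liver (-5.01, adjusted p = 1.2e-05; -3.37 with the offset), as did the summed Kupffer cell markers given above and the 2 kept lymphocyte markers (64.1 to 76.2 at 48 h, 472 to 668 in liver).

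**Figure D5:**
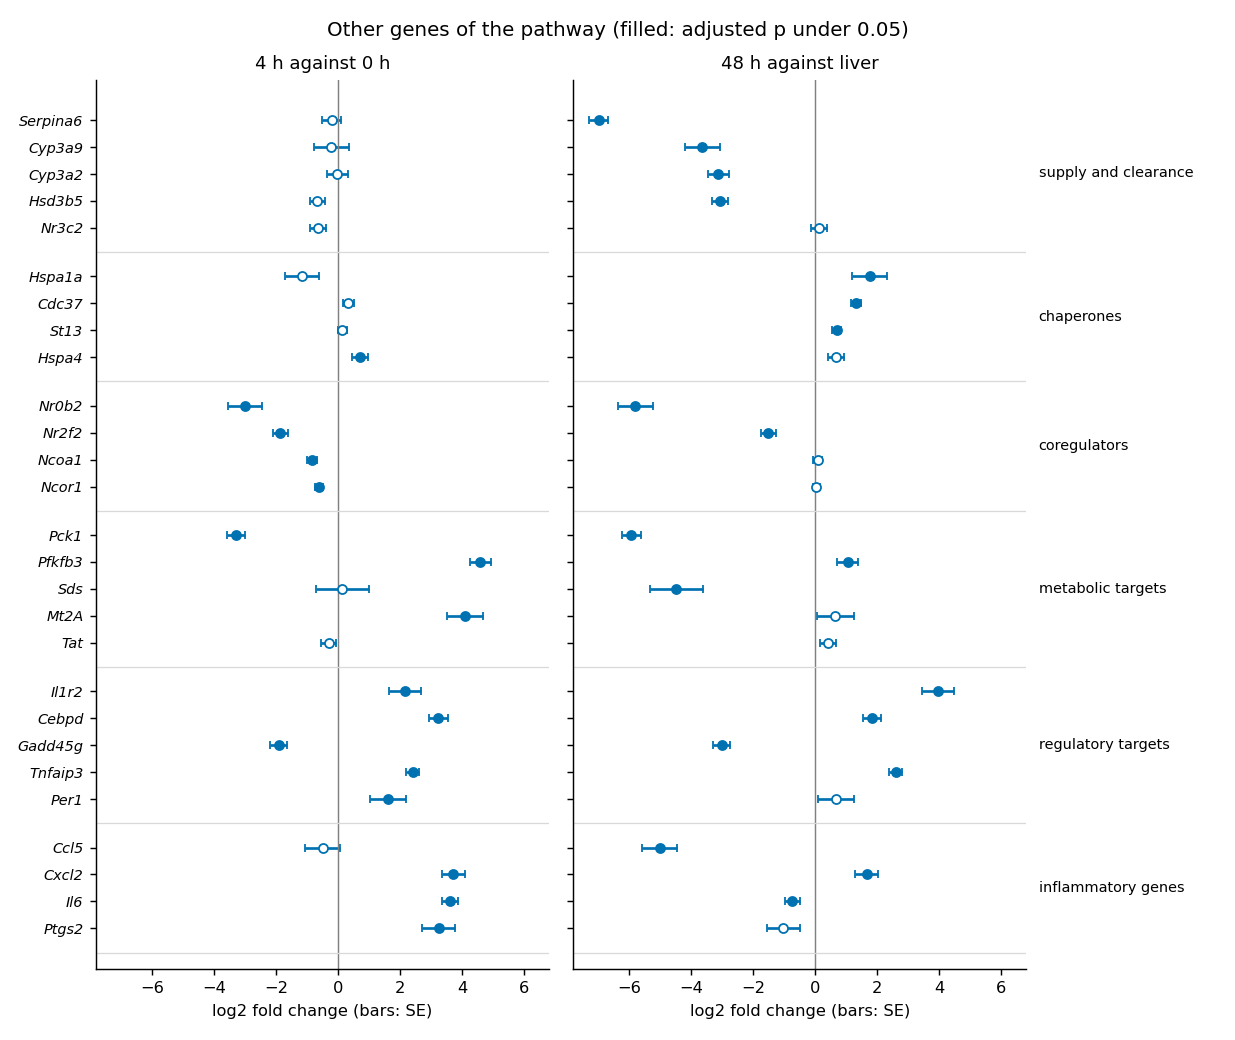
Log2 fold change with its SE at 4 h against 0 h (left) and at 48 h against liver (right) for named genes of 6 pathway lists; filled points have an adjusted p under 0.05. Most were picked as the largest changes among list genes called in either comparison, so their distance from 0 follows from that choice. Of the genes shown, the regulatory and inflammatory ones lie mostly to the right of 0 at 4 h. In the whole lists, 12 of 21 regulatory genes were then called higher and 3 lower, and 6 of 13 inflammatory genes higher and 0 lower. Serpina6 (-6.97), Pck1 (-5.92) and Nr0b2 (-5.80) lie furthest to the left at 48 h.

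The 6 genes did not move as one. Over the 15 samples, which share rats and times, Pearson's r of log2 signal between pairs of the 6 ran between -0.78 (Fkbp5 with Tsc22d3, and Fkbp5 with Nr3c1) and 0.83 (Nr3c1 with Sgk1); these are descriptions with no test. By the same measure, among genes whose group means spanned at least 1 on the log2 scale, the closest to Nr3c1 were Col13a1 (0.97), Fn3k (0.96) and Rmdn2 (0.96), with Rmdn2 at geometric means of 3819.7 in liver and 408 at 48 h. The closest to Fkbp5 were Tmem184b, Ccng1 and Eif6 (0.98 to 0.99), with Ccng1 at 611 in liver, 6675 at 4 h and 4535 at 48 h. The closest to Sgk1 were Gnmt, Sult1c3 and Klkb1 (0.97 to 0.98), with Gnmt at 19269 in liver, 17979 at 4 h and 3043 at 24 h. Tcf7l2, Zcchc24 and Tmem131l (0.90 to 0.91) were closest to Tsc22d3, Cxcl13, Lrg1 and Cd302 (0.90 to 0.91) to Klf9, and Fetub, Gstk1 and F9 (0.84 to 0.85) to Hsd11b1.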

How the data were processed

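RNA from each liver or RPH sample was hybridized to Affymetrix RG230-2 arrays, and the deposited values are MAS5 signal intensities that the authors made by scaling every array to a trimmed mean of 500 (2% trimmed at each end) and leaving out 2 arrays; the labels also name the affy package. Here log2 intensities of the arrays of a rat and group were averaged, giving 15 samples. Probe sets above the array median on at least 10% of arrays and with 1 listed symbol were kept, the brightest for each gene (10649 genes). The 5 groups were fitted together with limma 3.58.1 (R 4.3.3), without a rat term, and p-values were adjusted over all genes within each comparison (Benjamini-Hochberg; called at adjusted p under 0.05). The fit was tested on simulated data whose samples were independent, with no rat effect. That run cannot speak to the likeness between samples of a rat. A permutation test of 3 against 3 samples cannot go below p = 0.1, so no such test was used. No depth applies to arrays; 3 rats per group limit the precision.

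Samples of a rat came from the same animal, and their deviations correlated at a median of 0.34 (30 pairs) against -0.18 for different rats (60 pairs). Deviations were taken from the mean of each group, so the negative value follows largely from the positive one and is no separate evidence. Alternatives were quantile normalization, centring, offset, filters, mean of all probe sets, first array only, all 43 arrays, rat as a replicate block, a trend, the 2 groups alone, the beta-actin ratio as covariate, a threshold of 0.01 and each rat or sample left out; exchanging the livers of rats 1 and 2 was chosen after seeing the data. The genes and lists were chosen with earlier results of these data known. From each list the 4 genes with the largest change among those called at 4 h against 0 h or at 48 h against liver were eligible to be named, together with Serpina6, Tat, Nr3c2 and Per1, and 3 genes most like each of the 6 were named by Pearson's r.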

Additional observations from a re-analysis of the deposited data

How the results depend on the processing

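Over 10 comparisons and 31 settings each, the number of the 6 genes called stayed within 1.5 times in 301 and moved in 9. Counts this small can lose or gain a gene within that limit: they ran from 2 to 4 at 4 h and from 3 to 5 at 24 h against liver. Many counts also had little room to move, as leaving out a sample of a group not compared leaves the fold changes as they were. At 0 h against liver the count was 0 under every setting. The threshold of 0.01 was not among these settings. It would drop, among others, Nr3c1 at 4 h (adjusted p = 0.0113) and Tsc22d3 at 24 h (adjusted p = 0.013) against liver. With the mean of all probe sets the count was 3 at 48 h against liver, against 0 h and against 4 h, against 5 in each with the brightest probe set. With 1 rat or sample left out it was 3 to 5 at 48 h against 0 h (3 without rat 3), 3 at 48 h against 4 h without rat 2 or rat 3, and 1 at 24 h against 4 h without rat 3. At 48 h against 24 h, 1 gene (Klf9) was called with all 43 arrays (-0.59) and with the beta-actin covariate (-0.65). Rat as a replicate block changed 2 calls, Sgk1 at 4 h against liver (adjusted p = 0.0339) and Tsc22d3 at 48 h against 4 h (adjusted p = 0.0184), and no other. Fkbp5 and Sgk1 kept their calls against liver at 24 and 48 h under every setting run, and Fkbp5 at 4 h too.

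The differences that turned direction were mostly small ones. The larger were those of Nr3c1 at 4 h (-0.78, called) and Klf9 at 24 h (-0.50, not called) against liver, both with the mean of all probe sets. The cause was not tested. With quantile normalization Hsd11b1 gave 0.014 at 0 h against liver, 0.021 at 24 h against liver and 0.0069 at 24 h against 0 h, and Tsc22d3 gave -0.075 at 0 h against liver. With centring the 0 h differences from liver were 0.19 (Fkbp5), 0.36 (Hsd11b1), 0.28 (Klf9) and 0.35 (Nr3c1), Klf9 gave 0.38 at 4 h and Hsd11b1 0.21 at 24 h. With the mean of all probe sets the 0 h differences were 0.042 (Fkbp5), 0.39 (Klf9) and 0.034 (Nr3c1), those at 4 h were 0.48 (Klf9) and 0.030 (Nr3c1), Klf9 gave 0.25 at 24 h, and Fkbp5 gave -0.0064 at 48 h against 24 h. With the first array alone Hsd11b1, Klf9 and Nr3c1 gave 0.033, 0.11 and 0.083 at 0 h against liver, and Klf9 gave 0.025 at 4 h against liver and -0.084 against 0 h. With all 43 arrays Hsd11b1 gave -0.00045 at 4 h against liver. With the beta-actin covariate Hsd11b1 gave -0.10 at 4 h against liver and -0.052 against 0 h, and Klf9 -0.23 at 4 h against 0 h.

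With 1 rat or sample left out, the 0 h difference from liver was -0.16 to 0.17 for Hsd11b1, -0.32 to 0.21 for Klf9, -0.16 to 0.10 for Nr3c1, -0.0088 to 0.59 for Sgk1 and -0.26 to 0.18 for Tsc22d3. At 4 h against liver it was -0.034 to 0.041 for Hsd11b1 and -0.30 to 0.17 for Klf9, and at 4 h against 0 h -0.17 to 0.17 for Hsd11b1 and -0.15 to 0.19 for Klf9. Tsc22d3 gave -0.076 to 0.63 at 24 h against 4 h, and at 48 h against 24 h Fkbp5 gave -0.013 to 0.20 and Nr3c1 -0.42 to 0.0081. The call of Nr3c1 at 4 h against liver was lost without rat 2 (-0.92) or rat 3 (-0.54), at 4 h against 0 h in 4 leave-outs (-0.85 to -0.63) and at 24 h against 4 h in 6 (-0.69 to -0.50), and at 48 h against 4 h without rat 2 (-0.83). That of Hsd11b1 at 48 h against liver was lost in 7 leave-outs (-0.55 to -0.40), at 48 h against 4 h in 7 (-0.56 to -0.39) and at 48 h against 0 h in 6 (-0.50 to -0.33). That of Tsc22d3 was lost without rat 1 at 4 h against liver (-1.19) and against 0 h (-1.16), and at 24 h against liver without rat 1 (-0.92), rat 2 (-0.93) or the liver of rat 2 (-0.89), and at 24 h against 0 h without rat 1 (-0.89) or its 0 h sample (-0.91). Tsc22d3 at 48 h against liver was called without rat 3 (-0.80) or its liver (-0.84). At 48 h against 4 h Tsc22d3 was called without rat 2 (1.13), its 4 h sample (1.11) or the liver of rat 3 (0.75). Without rat 3 Fkbp5 lost its calls at 24 h (-0.72) and 48 h (-0.67) against 4 h, and at 48 h also without rat 2 (-0.64), and Klf9 lost that at 48 h against 0 h (-0.86). Klf9 at 24 h against liver was called without rat 1 (-0.77) or its liver (-0.72).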

Other observations

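The following genes were chosen after their values were seen and are given as values only. A2m, an acute phase protein of rat liver known to be raised by interleukin-6 together with glucocorticoid, had geometric mean signals of 2483 in liver, 2555 at 0 h, 34057 at 4 h, 35492 at 24 h and 19609.5 at 48 h. Cxcl1, a neutrophil chemokine, had 267 in liver, 1815 at 0 h, 10115 at 4 h, 4719 at 24 h and 1159.6 at 48 h. Il6r, the interleukin-6 receptor, had 1526 in liver, 1431 at 0 h, 4277 at 4 h, 1099 at 24 h and 763 at 48 h.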
